A study of Homo sapiens with 2 samples.

Results

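Cholesterol and fatty acid synthesis was followed through 36 genes that encode the enzymes of both routes, the SREBP machinery that controls them, the sterol carrier STARD4 and a few enzymes that use the newly made fatty acids. The members were chosen by symbol, and all 36 were found among the 22965 Ensembl gene IDs of the files and averaged 10 or more counts over the 2 libraries, here called measured. The RNA came from H460, a line derived from a human large cell carcinoma of the lung, grown in serum-containing DMEM. In the PKP2 group the pSin-puro vector delivered PKP2, which encodes plakophilin 2, a desmosomal armadillo-repeat protein, and in the vector group the cells carried the control vector. Both cultures were at passage 5, and each group has 1 library, of 20319137 counts for PKP2 and 23513304 counts for vector. No difference given here therefore has a replicate check, no test across samples exists, and fewer cells of a kind cannot be told apart from less RNA per cell.

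Cells make cholesterol from acetyl-CoA through mevalonate, squalene and lanosterol, and they make fatty acids from acetyl-CoA through malonyl-CoA. The SREBP transcription factors, encoded by SREBF1 and SREBF2, switch on most genes of both routes. When the endoplasmic reticulum holds enough sterol, INSIG proteins keep SCAP and its SREBP cargo there, and when sterol is short the SREBP precursor moves to the Golgi apparatus and is cut to its active form. INSIG1 is itself an SREBP target, and SREBP-1 is known mainly for lipogenic genes such as FASN and SCD, while SREBP-2 is known mainly for cholesterol genes.

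Values are given as CPM, each gene's count scaled by library size, and as the log2 ratio of the PKP2 over the vector library, with a 95% interval that covers counting error only. PKP2 itself had 1330 counts in the PKP2 library and 181 in the vector library, an 8.66-fold difference (7.41 to 10.2) in the direction of the labels. The epithelial keratin genes KRT8, KRT18 and KRT19 were abundant, the listed epithelial markers (4 of 5) summing to 1233 CPM in the PKP2 library and 1223 CPM in the vector library. Within that sum KRT19 was 2.11-fold higher in the PKP2 library, and KRT8 was 1.498-fold and KRT18 1.33-fold lower. EPCAM had 16 counts in the PKP2 library and 28 in the vector library, and CDH1 was not analysed here. Fibroblast markers summed to 20.01 CPM in the PKP2 library and 47.6 CPM in the vector library, mostly from COL3A1, with 3 of 5 markers listed. Leukocyte markers (2 of 4 listed) summed to 21.6 CPM in the PKP2 library and 19.1 CPM in the vector library, mostly from the lysosomal gene CD68, which shares 81.25% of its 31-base stretches with AC016876.2. CD14 was 3.32-fold lower, with 23 counts in the PKP2 library and 90 in the vector library. Markers of fat and liver cells (3 of 4 listed) summed to 1.59 CPM in the PKP2 library and 1.77 CPM in the vector library. Of the 3 endothelial markers 1 was listed, VWF, with 0 counts in the PKP2 library and 2 in the vector library. The part of these markers in the results was not tested.

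Of the 36 synthesis genes, 33 differed by less than 2-fold between the libraries, as did 92.9% of all measured genes. SC5D, the sterol desaturase near the end of the cholesterol route, was 4.02-fold higher in the PKP2 library. The sterol sensor gene INSIG1 was 2.19-fold lower and the lipogenic regulator gene SREBF1 2.08-fold lower. Of all 15991 measured genes, 2.47% were higher and 4.61% lower by 2-fold or more, against 1 and 2 of the 36 members. Among genes averaging at least 50 counts, as every member did, the shares were smaller, 1.52% and 2.36%. The members lie near the first pair of shares, and 1 and 2 genes are too few to rank against the second. The members' median log2 ratio was -0.12, against -0.03 over all 15991 measured genes and -0.01 over those averaging at least 50 counts. A ratio below 0 was found for 22 members, the other 14 being above 0, and for 52.7% of all genes. The counting interval lay wholly below 0 in 19 members and wholly above 0 in 11, against 28.8% and 25.9% of all genes. Whether an interval leaves out 0 depends on depth. All members but TM7SF2 averaged over 100 counts, while all genes include those near 10, so these shares are not matched for depth. At 1.5-fold, 2 members were higher and 5 lower, against 6.87% and 12.9% of all genes, and at 3-fold 1 member was higher and 0 lower, against 0.713% and 1.57%.

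**Figure D1:**
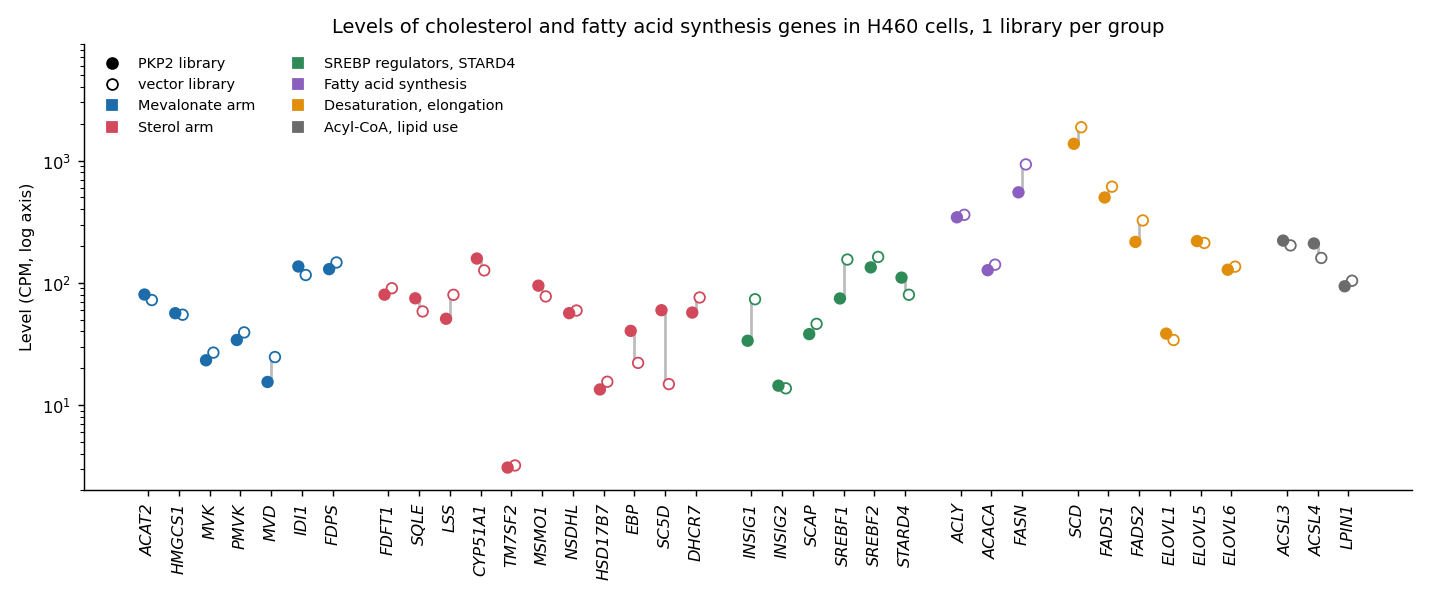
Level of each of the 36 genes in CPM on a log axis, with the PKP2 library as filled circles and the vector library as open circles, joined by a grey line and coloured by role. SC5D has the widest gap upward (59.7 CPM in PKP2, 14.8 CPM in vector), INSIG1 and SREBF1 the widest downward, and SCD is the most abundant at 1372 CPM in PKP2 and 1876 CPM in vector.

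Transcript GC content went with the ratio. Across the 11610 well-counted genes (100 or more counts on average, and a known transcript), Spearman's rho between GC content and the ratio was -0.61, and across the 36 members it was -0.65. All genes and members share the same pair of libraries, so both values are descriptions. Among the 18 members of lower GC content (34.2% to 48.6%) the median was 0.06 and 7 were below 0. Among the 18 of higher GC content (50.1% to 65.6%) it was -0.24 and 15 were below 0. A smooth curve over all well-counted genes ran from 0.31 at a GC content of 35% to -0.51 at 65%. Each ratio less the curve's value is called GC-corrected below. After this correction the members' median was -0.08, 21 were below 0 (51.1% of all genes were), 9 had taken the other sign, and SC5D (higher) and INSIG1 (lower) were past 2-fold. The corrected backgrounds were 2.35% higher and 3.49% lower.

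**Figure D2:**
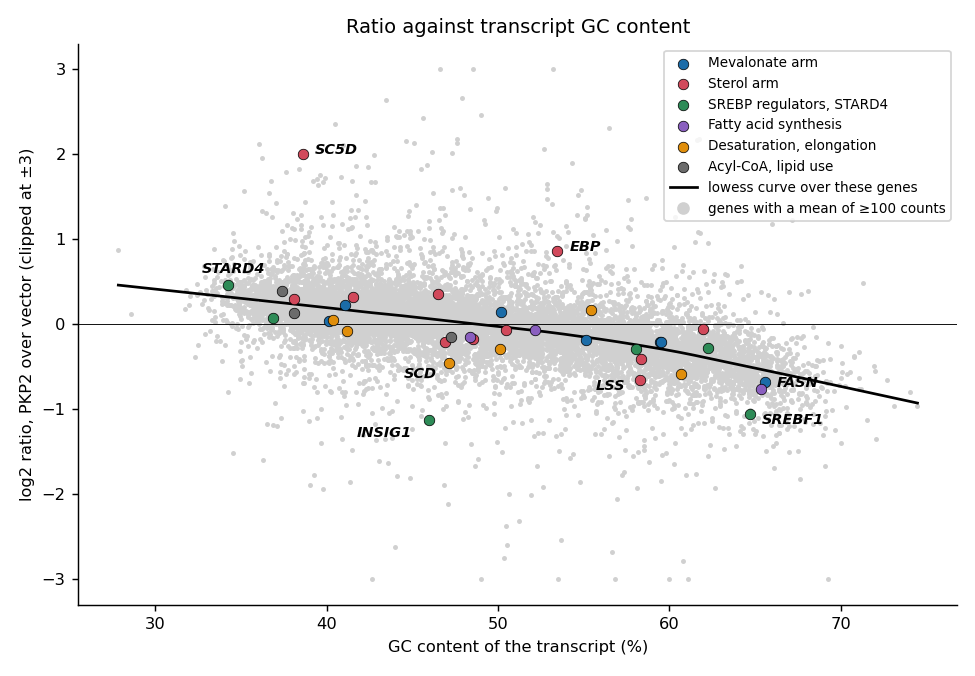
Log2 ratio (PKP2 over vector) against transcript GC content in percent, with genes of at least 100 mean counts in grey, a lowess curve over them in black and the 36 members coloured by role. Most members lie close to the curve, and SC5D and EBP lie farthest above it. INSIG1 lies farthest below it (GC-corrected -1.20), followed by SREBF1 (-0.55), SCD (-0.49) and LSS (-0.40). SREBF1 and FASN sit where the curve itself is near -0.5.

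The mevalonate arm, which turns acetyl-CoA into farnesyl diphosphate, was close to even between the libraries, with all 7 genes within 2-fold, 3 above 0 and 4 below. Their median ratio was -0.18, and 0.06 GC-corrected. ACAT2, the cytosolic thiolase that joins acetyl-CoA units, had 80.2 CPM in the PKP2 library and 72.3 CPM in the vector library, a ratio of 0.15 (0.05 to 0.25). HMGCS1, which makes HMG-CoA, had 56.4 CPM in the PKP2 library and 54.8 CPM in the vector library. Its ratio was 0.04, with an interval of -0.08 to 0.16 that takes in 0, and -0.15 GC-corrected.

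Both kinases of the arm stood at the same small distance below 0. MVK, mevalonate kinase, had 468 counts in the PKP2 library and 637 in the vector library, and PMVK, phosphomevalonate kinase, 686 and 932 counts, each with a ratio of -0.21. After GC correction both were at 0.08. MVD, the decarboxylase that forms isopentenyl diphosphate, was the lowest of the arm, with 311 counts in the PKP2 library and 586 in the vector library, a ratio of -0.68 (-0.88 to -0.48). It also has the highest GC content of all members, 65.6%, and its GC-corrected ratio was -0.14. IDI1, the isomerase that balances the isoprene units, went the other way, with 136.1 CPM in the PKP2 library and 115.9 CPM in the vector library, a ratio of 0.23, and 0.06 GC-corrected. FDPS, which condenses these units to farnesyl diphosphate, had a ratio of -0.18, and -0.03 GC-corrected. It was the most abundant of the arm per transcript length, with 87.5 CPM per kb in the PKP2 library and 99.3 CPM per kb in the vector library. FDPS shares 19.9% of its 31-base stretches, mainly with RUSC1-AS1, and IDI1 16.3%, mainly with IDI2-AS1.

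The sterol arm held both the highest ratio of the whole route and several lower ones, with 5 of 11 genes above 0 and 6 below and a median of -0.06 (0.05 GC-corrected). The mean ratio of the arm was 0.21 and the ratio of its summed CPM 0.14, both of the opposite sign to the median. SC5D (ENSG00000109929), which places the last ring double bond before the final reductase step, had 1202 counts in the PKP2 library and 352 in the vector library, or 59.7 and 14.8 CPM. Its ratio of 2.01 (1.84 to 2.18), or 4.02-fold (3.57 to 4.54), was higher than that of 99.6% of all measured genes. The GC-corrected ratio was 1.78. SC5D shares 1.68% of its 31-base stretches with other listed genes, and no exon of another listed gene overlaps it.

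EBP, the sterol isomerase that feeds SC5D, was the next highest of all members, with 814 counts in the PKP2 library and 525 in the vector library. Its ratio of 0.87 (0.71 to 1.03) corresponds to 1.83-fold, and the GC-corrected ratio was 0.97. DHCR7, the reductase that follows SC5D, was lower at a ratio of -0.41 (-0.52 to -0.30), with 1150 and 1800 counts in the PKP2 and vector libraries. Its GC-corrected ratio was -0.16. The steps on either side of SC5D thus stood on opposite sides of 0, with DHCR7 nearer to 0 after the correction. Within a library the count ratio of 2 genes does not depend on scaling. SC5D had 1.05 counts for each count of DHCR7 in the PKP2 library and 0.196 in the vector library, a 5.34-fold difference (4.64 to 6.17). On the log2 scale this is 2.42, and 1.94 after GC correction of both genes. Per transcript length SC5D stood at 24.3 CPM per kb in the PKP2 library, near the 22.8 of EBP and 21.4 of DHCR7, and at 6.04 CPM per kb in the vector library, below the 12.5 of EBP and 28.5 of DHCR7.

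Earlier sterol steps split in direction. SQLE, the squalene epoxidase, had 74.7 CPM in the PKP2 library against 58.3 CPM in the vector library. Its ratio was 0.36 (0.25 to 0.46), or 0.30 GC-corrected. FDFT1, squalene synthase, which supplies SQLE, was at -0.18 with and without the correction. LSS, the cyclase that makes lanosterol from the epoxide, was the lowest of the arm, with 1023 counts in the PKP2 library and 1893 in the vector library. Its ratio was -0.65 (-0.76 to -0.54), or 1.57-fold lower, and -0.40 GC-corrected.

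CYP51A1, the cytochrome P450 that starts the demethylation of lanosterol, and MSMO1, the methyl sterol oxidase that continues it, had ratios of 0.32 and 0.29. GC correction brought these to 0.16 and 0.05. CYP51A1 shares 33.2% of those stretches, mainly with the pseudogene CYP51A1P2, so its count is less certain. NSDHL and HSD17B7, which complete the removal of methyl groups, were at -0.07 and -0.21, with intervals that take in 0. GC-corrected, they were at -0.04 and -0.26. HSD17B7 shares 21.2% of its stretches, mainly with HSD17B7P2. TM7SF2, a sterol reductase, was the least abundant member, with 62 counts in the PKP2 library and 76 in the vector library. Its ratio of -0.06 had an interval of -0.56 to 0.45, and the GC-corrected ratio was 0.33.

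**Figure D3:**
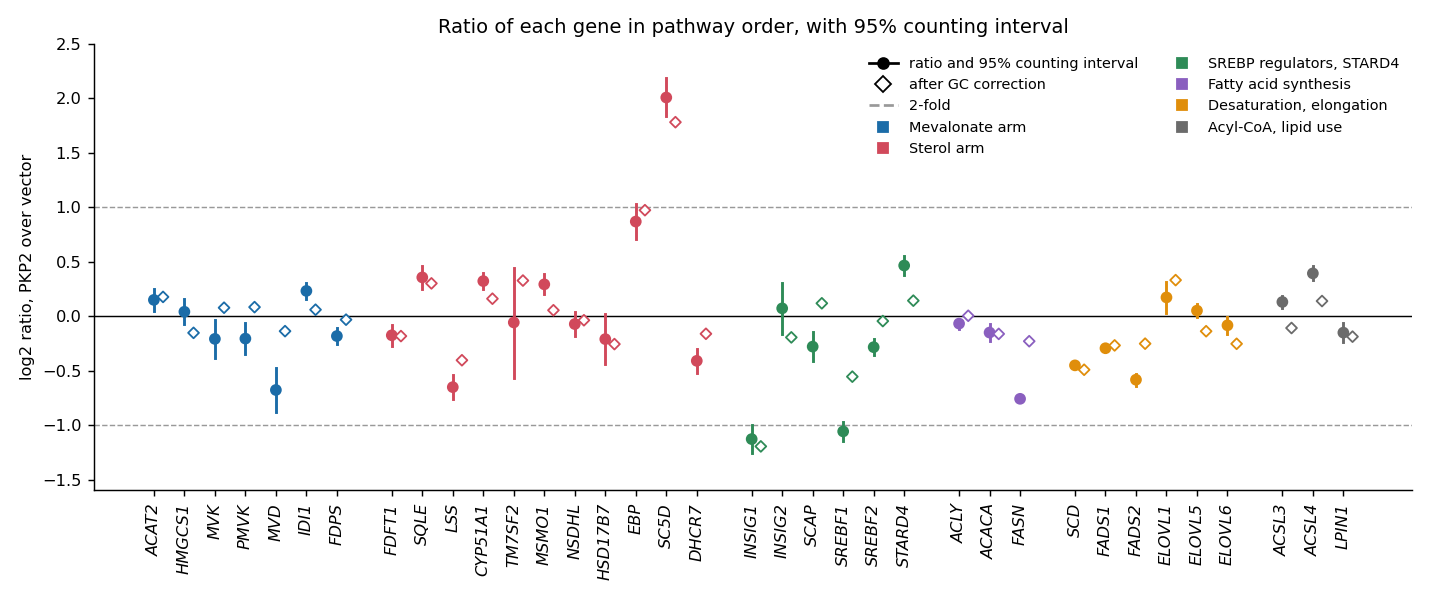
Log2 ratio (PKP2 over vector) of each member in pathway order as filled circles with 95% counting intervals, and the GC-corrected ratio as open diamonds, with dashed lines at 2-fold. SC5D (2.01) is past the upper line by both measures and INSIG1 (-1.13) past the lower one, while SREBF1 moves from -1.06 to -0.55 with the correction.

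Among the regulators, INSIG1 and SREBF1 were lower in the PKP2 library by more than 2-fold, SREBF1 only without GC correction, and their close relatives INSIG2 and SREBF2 differed less. INSIG1 (ENSG00000186480) had 676 counts in the PKP2 library and 1741 in the vector library, or 33.6 and 73.4 CPM. Its ratio was -1.13 (-1.26 to -0.999), a 2.19-fold lower level (1.999 to 2.39), and -1.20 GC-corrected, among the lowest 2.42% of all measured genes by that measure. INSIG2 retains SCAP in the same way and is not known as an SREBP target. It had 290 counts in the PKP2 library and 325 in the vector library, a ratio of 0.07 (-0.16 to 0.31). Its GC-corrected ratio was -0.19. INSIG1 thus had 2.33 counts for each count of INSIG2 in the PKP2 library and 5.36 in the vector library, a ratio of ratios of 0.435 (0.361 to 0.524).

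SREBF1 (ENSG00000072310) had 1500 counts in the PKP2 library and 3679 in the vector library, or 74.5 and 155.1 CPM. The ratio was -1.06 (-1.15 to -0.97), 2.08-fold lower (1.96 to 2.21), so the counting interval takes in values within 2-fold. SREBF1 transcripts have a GC content of 64.7%, and the GC-corrected ratio was -0.55, no longer past 2-fold. An opposite-strand gene, RAI1, overlaps 6.92% of the exon bases of SREBF1 and had 1156 and 1813 counts in the PKP2 and vector libraries, a ratio of -0.41. Whether the counting used strand is not given in the sources used here. SREBF2 had 2694 counts in the PKP2 library and 3865 in the vector library, a ratio of -0.28 (-0.36 to -0.21), and -0.04 GC-corrected. The vector library held nearly as many SREBF1 as SREBF2 counts (0.952 for each), and the PKP2 library 0.557, a ratio of ratios of 0.585 (0.541 to 0.633), which is -0.77 on the log2 scale and -0.51 after GC correction of both genes. The counts do not separate the SREBP-1a and SREBP-1c transcripts of SREBF1.

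SCAP, the escort of both SREBPs, had 38.0 CPM in the PKP2 library and 46.2 CPM in the vector library, a ratio of -0.28, which turned to 0.12 after GC correction. STARD4, a cytosolic carrier of cholesterol and an SREBP-2 target, had the highest ratio of the group, with 110.3 CPM in the PKP2 library and 79.9 CPM in the vector library. Its ratio was 0.47 (0.38 to 0.55), and 0.14 after correction for its GC content of 34.2%, the lowest of all members. Over these 6 genes the median ratio was -0.28, and -0.12 GC-corrected.

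The promoters of the genes past 2-fold, and of SREBF2 for contrast, are shown so that the regulatory sequence can be read beside these ratios. Each line gives the 250 bases before an annotated RefSeq start (build GRCh38.p14, 5′ to 3′ on the gene's strand), with motif matches on either strand in capitals. The motifs were the sterol response element TCACNCCAC, the E-box CACGTG, the CCAAT box CCAAT and the GC box GGGCGG, and in these windows no base lay in matches of more than 1 motif. The windows are SC5D at chr11:121292521-121292770 (+), INSIG1 at chr7:155297628-155297877 (+), SREBF1 at chr17:17836987-17837236 (-) and SREBF2 at chr22:41832855-41833104 (+). SC5D has a further annotated start whose window overlaps the one shown.
SC5D: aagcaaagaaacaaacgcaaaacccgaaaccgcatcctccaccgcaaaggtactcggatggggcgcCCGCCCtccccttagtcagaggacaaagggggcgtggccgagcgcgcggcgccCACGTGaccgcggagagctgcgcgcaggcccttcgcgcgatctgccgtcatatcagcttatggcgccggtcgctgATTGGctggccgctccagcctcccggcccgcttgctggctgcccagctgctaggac
INSIG1: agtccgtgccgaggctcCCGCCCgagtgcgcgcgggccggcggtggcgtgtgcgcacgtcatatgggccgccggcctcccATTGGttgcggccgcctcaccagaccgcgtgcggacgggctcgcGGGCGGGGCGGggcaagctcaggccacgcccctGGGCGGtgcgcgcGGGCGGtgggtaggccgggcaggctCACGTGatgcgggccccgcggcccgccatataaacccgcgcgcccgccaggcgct
SREBF1: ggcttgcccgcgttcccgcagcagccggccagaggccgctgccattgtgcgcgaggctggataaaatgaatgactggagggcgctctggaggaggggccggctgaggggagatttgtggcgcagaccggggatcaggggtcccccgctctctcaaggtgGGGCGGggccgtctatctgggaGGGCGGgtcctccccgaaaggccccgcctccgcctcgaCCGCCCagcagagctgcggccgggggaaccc
SREBF2: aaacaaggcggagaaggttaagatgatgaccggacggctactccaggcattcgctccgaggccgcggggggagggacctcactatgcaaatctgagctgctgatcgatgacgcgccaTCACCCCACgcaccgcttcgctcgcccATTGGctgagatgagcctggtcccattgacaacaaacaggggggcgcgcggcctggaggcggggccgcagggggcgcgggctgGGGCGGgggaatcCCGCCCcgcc

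The SREBF2 window alone held a sterol response element match, ending 124 bases before the start, with a CCAAT match ending 101 bases before it. SC5D and INSIG1 each had 1 E-box, 1 CCAAT match and GC boxes (1 and 5), and the SREBF1 window had 3 GC boxes only. Only 1 SREBF1 window was available, so motifs near any other start of that gene were not examined. RefSeq windows were found for 32 of the 36 members, 44 windows in all. Of these 1 (2.27%) held the sterol response element, against 0.883% of the windows of all genes, and 26 (59.1%) held the CCAAT box, against 32.0%. GC boxes were in 38 member windows (86.4%), against 42.6% of the windows of all genes and 62.5% of those of measured genes, and E-boxes in 5 (11.4%), against 6.35% and 8.24%. By gene, E-boxes were in 12.5% of members and 11.25% of measured genes, so the members lie near that background. These are matches of letters in a short window, and they say nothing of which factor bound there. Of the members, 9 have more than 1 start, and the windows of some of these, SC5D and ACLY among them, overlap, so windows are not independent.

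All 3 enzymes of the fatty acid core had ratios below 0, with FASN the lowest, and after GC correction 2 of 3 did. Of all measured genes 52.7% were below 0, and 51.1% after the correction, and 3 genes are too few to rank against these shares. FASN, the fatty acid synthase, had 11077 counts in the PKP2 library and 22078 in the vector library, or 550.1 and 930.5 CPM. Its ratio was -0.76 (-0.79 to -0.73), or 1.69-fold lower, and -0.23 after correction for its GC content of 65.3%. ACLY, which releases acetyl-CoA from citrate, had 343.6 CPM in the PKP2 library and 360.1 CPM in the vector library, a ratio of -0.07, and 0.00 GC-corrected. ACACA, the carboxylase that makes malonyl-CoA, had 126.9 CPM in the PKP2 library and 140.8 CPM in the vector library, a ratio of -0.15, and -0.16 GC-corrected. FASN had 1.601 counts for each count of ACLY in the PKP2 library and 2.58 in the vector library, a ratio of ratios of 0.619 (0.596 to 0.644). On the log2 scale this is -0.69, and -0.23 after GC correction of both genes.

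The 3 desaturase genes were lower in the PKP2 library, and the 3 elongase genes among the members had ratios from -0.08 to 0.17 before GC correction. SCD, the stearoyl-CoA desaturase that makes oleate, was the most abundant member by counts and per length, with 27624 counts in the PKP2 library and 44499 in the vector library. That is 255.8 CPM per kb in the PKP2 library and 349.8 CPM per kb in the vector library. Its ratio was -0.45 (-0.47 to -0.43), and -0.49 GC-corrected, so the correction left it nearly where it was. FADS1, the front-end desaturase that makes arachidonate, was at -0.29 (-0.33 to -0.26) and -0.27 GC-corrected, and FADS2, which acts earlier on the same chains, at -0.58 (-0.64 to -0.53) and -0.25. FADS1 and FADS2 lie head to head and overlap on opposite strands over 490 exon bases. Their summed counts gave a ratio of -0.39.

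ELOVL1, which extends very long saturated chains, was at 0.17 (0.03 to 0.32), and at 0.33 GC-corrected. ELOVL5, which extends polyunsaturated chains, was at 0.05 with an interval that takes in 0, and ELOVL6, which extends palmitate, at -0.08 (-0.16 to -0.01). The GC-corrected values of ELOVL5 and ELOVL6 were -0.14 and -0.25. Over the 6 desaturase and elongase genes the median was -0.19, and -0.25 GC-corrected. After the correction 5 of 6 were below 0, as were 51.1% of all genes, and 6 genes are too few to rank against that share.

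The enzymes that use fatty acids were on both sides of 0. ACSL4, which activates arachidonate and other polyunsaturated fatty acids, had 209.8 CPM in the PKP2 library and 159.7 CPM in the vector library, a ratio of 0.39 (0.33 to 0.46), and 0.14 GC-corrected. ACSL3, the acyl-CoA synthetase of lipid droplets, was at 0.13, and -0.11 GC-corrected. The library held 1.06 counts of ACSL3 for each count of ACSL4 with PKP2 and 1.27 with vector, a ratio of ratios of 0.834 (0.785 to 0.886). LPIN1, the phosphatidate phosphatase lipin 1 and an SREBP-1 target, was at -0.15, and -0.19 GC-corrected.

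Together the 36 genes took 0.554% of the counts in the PKP2 library (95% Wilson interval 0.550 to 0.557) and 0.679% in the vector library (0.675 to 0.682). Their summed CPM gave a ratio of -0.27. SCD, FASN and FADS1 alone took 0.240% in the PKP2 library and 0.345% in the vector library. The other 33 genes took 0.314% in the PKP2 library and 0.334% in the vector library, a ratio of -0.06. The lower sum thus came mostly from the few most abundant lipogenic genes.

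Other genes of the same pathways were compared in lists apart from the members. None of the 13 measured genes of cholesterol uptake, storage and efflux was past 2-fold, and their median ratio was 0.01. Of all measured genes 92.9% were within 2-fold, so a count of 0 in a list of this size lies near that share. ABCG1 (-0.76, with 15 and 30 counts in the PKP2 and vector libraries) and ABCA1 (-0.61; 207 and 372 counts), the efflux transporters, were the low end together with the lysosomal cholesterol carrier NPC2 (-0.69) and the oxysterol receptor gene NR1H3 (-0.52). SOAT2 had 0 counts in the PKP2 library and 2 in the vector library and was not measured.

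Sterol sensing and the remaining steps of the route likewise had 0 of 17 measured genes past 2-fold, with a median of 0.02. This too lies near the share of all measured genes, 92.9% within 2-fold. POR, the reductase that feeds electrons to CYP51A1 and SQLE, was the lowest at -0.60, and -0.24 GC-corrected. MBTPS2, the protease that makes the final cut in SREBP, and PAQR3, a Golgi anchor of SCAP, were both at 0.50. ERLIN1, an endoplasmic reticulum factor in degradation, was at 0.37. GC-corrected, MBTPS2 was at 0.30, PAQR3 at 0.19 and ERLIN1 at 0.30. PAQR3 shares 44.1% of its 31-base stretches, mainly with BMP2K.

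The isoprenoid branches had a median of 0.11 over 13 genes (0.07 GC-corrected). All were within 2-fold, as were 92.9% of all measured genes. Of these genes 11 were above 0 and 2 below, and 9 and 4 after GC correction. Of all measured genes 52.7% were below 0, and 51.1% after the correction. FNTB, the farnesyltransferase beta subunit, was at 0.92, but it overlaps the read-through gene CHURC1-FNTB on the same strand, and their summed counts gave 0.61. After GC correction FNTB alone was at 1.04. PGGT1B (0.45), a beta subunit of the enzyme that attaches geranylgeranyl groups, NUS1 (0.28), of dolichol synthesis, and ICMT (0.23), which methylates prenylated proteins, followed. GC-corrected, PGGT1B was at 0.13, NUS1 at 0.04 and ICMT at 0.25.

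Among 28 further genes of fatty acid and glycerolipid synthesis, 2 were at least 2-fold higher and 2 lower, against 2.47% and 4.61% of all measured genes, with a median of -0.10. HSD17B12, the ketoacyl reductase of the elongation cycle, had 4479 counts in the PKP2 library and 2360 in the vector library, a ratio of 1.16 (1.09 to 1.23), and 0.97 GC-corrected. ELOVL7, a further elongase, had 108 and 57 counts in the PKP2 and vector libraries, a ratio of 1.16 (0.68 to 1.65). MLXIPL, which encodes the glucose-sensing lipogenic factor ChREBP, was at -1.29 (-1.75 to -0.85), with 57 counts in the PKP2 library and 164 in the vector library, and -0.84 GC-corrected. ELOVL3 was at -1.11, with only 13 and 33 counts in the PKP2 and vector libraries and an interval of -2.16 to -0.14. Of these genes, ELOVL3 alone was past 2-fold after GC correction (-1.05).

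**Figure D4:**
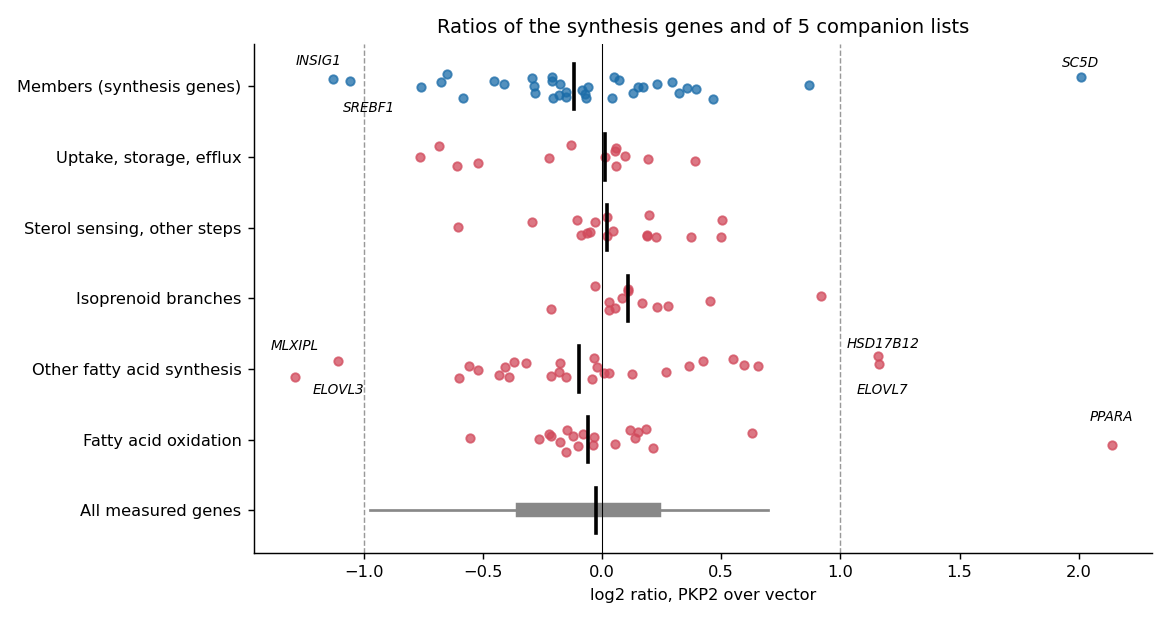
Log2 ratio (PKP2 over vector) of every measured gene in the synthesis genes and 5 companion lists, 1 point per gene, with black bars at medians and dashed lines at 2-fold. The bottom row shows all measured genes (thick bar from -0.33 to 0.22, the middle quartiles, and thin line from -0.97 to 0.70, the 5th to 95th percentiles), and genes past 2-fold are named.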

How the data were processed

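Per the labels' protocols, libraries were made from total RNA with the TruSeq RNA kit of Illumina. Bowtie 0.12.2 and the builds GRCh37 and hg19 are named in the submitters' processing notes. Not given in the sources used here are the counting program, its annotation and whether it used strand. The deposited values are counts per gene, not normalized, per the file headers, and are classed as estimated counts because 1 damaged row holds a decimal. No rounding was needed, and 2 rows per file without a readable gene count were left out.

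Ratios compare CPM from library totals times TMM factors (0.991 for PKP2, 1.01 for vector; edgeR 4.0.16, R 4.3.3), with no pseudocount and exact Clopper-Pearson intervals of the counts. Intervals cover counting error only: there were no molecular identifiers, so reads are not independent molecules. With 1 library per group no model could be fitted and p-values were not computed. Measured genes average 10 or more counts. GC content and length came from the GENCODE 29 principal transcript, present for 36 of 36 members, matched by gene ID. The GC curve was a lowess fit (fraction 0.3, statsmodels 0.14.6). Sequence sharing was measured as the percentage of 31-base stretches that also occur in another listed gene. Promoters came from RefSeq. Ratios of ratios carry exact conditional intervals (SciPy 1.17.1). The steps were tested on simulated counts.

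Members, lists and the rule for named genes were chosen with earlier results of these data known. All members are named, and of each companion list the genes past 2-fold and the 4 farthest from 0. Alternatives were other scalings (DESeq2 1.42.0 size factors among them), count minimums, pseudocounts, thresholds, corrections for GC content and length, means for medians, and leaving out members with shared sequence.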

Additional observations from a re-analysis of the deposited data

How the results depend on the processing

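Under other scalings (library totals alone, DESeq2 size factors, upper quartile factors) and with no count minimum, 1 member was at least 2-fold higher and 2 lower, every list count stayed within 1.5 times, and no list median moved past the limit set for it. The median of all genes lay between -0.05 and -0.01 under these settings. Correction for GC content left 1 member at least 2-fold lower, and 9 single members took the other sign. It moved the median ratio to 0.060 for the mevalonate arm, -0.12 for the regulators, -0.25 for desaturation and elongation and -0.11 for acyl-CoA and lipid use. It also put 1 isoprenoid gene past 2-fold higher, and left 0 higher and 1 lower among the other fatty acid genes. Correction for transcript length moved the medians of the mevalonate arm to -0.082, fatty acid synthesis to -0.27, desaturation and elongation to -0.25 and acyl-CoA use to 0.058, and left 1 other fatty acid gene lower. The mean for fatty acid synthesis was -0.33, and that for the sterol arm 0.21, of the opposite sign to its median. The cause of these shifts was not tested.

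At a threshold of 1.5-fold, 2 members were higher (SC5D and EBP) and 5 lower (INSIG1, SREBF1, FASN, MVD and LSS), against backgrounds of 6.87% and 12.9%. Then 3 uptake and efflux genes and 1 sterol sensing gene were lower, and 1 isoprenoid gene, 4 other fatty acid genes and 2 oxidation genes were higher. At 3-fold, 0 members were lower, and 0 other fatty acid genes were higher and 0 lower. Among the other fatty acid genes, 1 was lower with a minimum mean of 50 counts or with 0.5 CPM added, 1 was higher and 1 lower with 1 CPM added, and 1 was higher and 0 lower with 5 CPM added.

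No paired analysis was possible because each group has 1 library, and for the same reason leaving out a replicate was not run. The intervals hold counting error alone, so how far cultures of one kind differ is unknown. TM7SF2, the only member below 100 counts, is limited by depth.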

Other observations

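Fatty acid oxidation, the route opposite to synthesis, had 20 measured genes with a median ratio of -0.06 (PKP2 over vector), and -0.00 GC-corrected. Of these, 1 was at least 2-fold higher, none lower and 19 within 2-fold. The shares of all measured genes were near these, 2.47% higher, 4.61% lower and 92.9% within. PPARA, which encodes a nuclear receptor that switches on oxidation genes, had 269 counts in the PKP2 library and 72 in the vector library. Its ratio was 2.14 (1.76 to 2.53), and 2.11 GC-corrected. Of its 31-base stretches, 3.91% also occur elsewhere. The other 19 measured genes of the list were within 2-fold. CPT1A, which admits fatty acids to mitochondria and was chosen after its value was seen, had 2249 counts in the PKP2 library and 2389 in the vector library, a ratio of 0.15. The carnitine carrier gene SLC25A20 was at 0.63, the enoyl-CoA isomerase gene ECI1 at -0.55 (-0.19 GC-corrected) and ETFA, of the electron transfer flavoprotein, at -0.26.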
